A study of Homo sapiens with 42 samples.

Results

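The genes described here are 8 complement components and regulators, C1R, C1S, C3, CFB, CFD, CFI, CD55 and CD59, taken by name from the 28266 gene symbols of the count table. All 8 passed the filter on low counts in every fit. The 42 poly(A) RNA-seq libraries came from IMR90, a line of human lung fibroblasts, and from IMR90 ER:RAS, the same line carrying an oncogenic RAS fused to the oestrogen receptor, which 4-hydroxytamoxifen (4OHT) switches on so that cells enter oncogene-induced senescence (OIS). ER:RAS cells received DMSO or 100 nM 4OHT. IMR90 cells received DMSO or 50 µg/ml bleomycin, a DNA-damaging drug, for 24 h. After 7 days of culture, 1 µg/ml doxycycline was given to all 12 groups to switch on a control shRNA, COPB2 shRNA 1 or COPB2 shRNA 2, and RNA was taken 72 h later, at day 10. COPB2 is a subunit of COPI, the coat of vesicles that return from the Golgi apparatus. ER:RAS groups held 3 libraries and IMR90 groups held 4. The DMSO arm of ER:RAS also carries the fusion, and 4OHT was compared with bleomycin only across the 2 lines, so line and inducer cannot be told apart. The labels do not say whether replicates were separate cultures. The study's legends describe n as independent experiments, though they count 3 for bleomycin where the files hold 4, so p-values measure the spread between the libraries in the files.

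Libraries held 13148194 to 23597310 counts, and no replicate pair agreed within sampling noise. COPB2 stood at 267 to 620 CPM (the count scaled to a common library size by TMM) in the 14 libraries with control shRNA and at 33.9 to 122 CPM in the 28 with a COPB2 shRNA. HRAS stood at 47753 to 75170 counts in ER:RAS libraries and 461 to 2656 in IMR90 libraries. The 8 fibroblast markers (COL1A1, VIM and others) were over the floor of 3 counts in every group and summed to 7908 to 27487 CPM. They did not hold level: 6 of the 8 fell in OIS and VIM rose, and 6 of the 8 fell after bleomycin. With control shRNA, DCN went from 1583 to 10.6 CPM, COL3A1 from 2487 to 96.4 CPM and COL1A2 from 5357 to 600.3 CPM in OIS (group means, n = 3), and DCN from 2154 to 532 CPM and COL3A1 from 3808 to 779 CPM after bleomycin (n = 4). These falls moved with those of the complement proteases given below, and their part in them was not tested. The 7 blood cell markers summed to 0.350 to 3.87 CPM and the 3 hepatocyte markers to at most 1.90 CPM, with TTR at or under the floor in every group with control shRNA. The 5 epithelial markers summed to 9.69 to 41.6 CPM in 4OHT libraries with control shRNA against 1.52 to 2.36 CPM with DMSO, with CDH1, KRT5 and SFTPC at or under the floor. The 4 endothelial markers summed to 47.2 to 85.8 CPM in 4OHT libraries with control shRNA, against 1.40 to 3.93 CPM in their DMSO libraries and 2.13 to 3.50 CPM after bleomycin. The part of these markers in the results below was not tested. In bulk RNA, fewer cells that express a gene and less RNA per cell cannot be told apart.

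Complement is a cascade of proteases and binding proteins that marks surfaces and attracts immune cells. C1R and C1S are the 2 proteases of the C1 complex and start the classical pathway. C3 is the protein on which all routes converge. CFB supplies the protease of the alternative pathway convertase and CFD is the protease that activates CFB. CFI cleaves and inactivates C3b, CD55 speeds the decay of convertases on the cell surface, and CD59 blocks the membrane attack complex. The liver makes most plasma complement, but fibroblasts also secrete C1R, C1S and C3.

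C1R and C1S lie as neighbours on chromosome 12 (GRCh38.p14, 7080219 to 7092445 on the minus strand and 7060718 to 7071032 on the plus strand). C3 (6677704 to 6720650) and CFD (859664 to 863641) are on chromosome 19, CFB (31946095 to 31952084) on chromosome 6, CFI (109730982 to 109801999) on chromosome 4, CD55 (207321678 to 207360966) on chromosome 1 and CD59 (33703010 to 33736479) on chromosome 11. RefSeq promoter sequences were given for 6 of the 8, not for C3 or C1S. The 250 bases before the start are shown for C1R, which had the largest fall among members with counts in every group, for CFB, the other member that fell by more than 3 on the log2 scale in OIS with a promoter entry and counts in every group, and for the 2 surface regulators, CD55 and CD59. Capitals mark matches, on either strand, to a TATA box (TATAAA), an AP-1 site (TGANTCA), a STAT site (TTCNNNGAA), an interferon-stimulated response element, or an NF-kappaB site.
CFB, chr6:31945845-31946094, plus strand: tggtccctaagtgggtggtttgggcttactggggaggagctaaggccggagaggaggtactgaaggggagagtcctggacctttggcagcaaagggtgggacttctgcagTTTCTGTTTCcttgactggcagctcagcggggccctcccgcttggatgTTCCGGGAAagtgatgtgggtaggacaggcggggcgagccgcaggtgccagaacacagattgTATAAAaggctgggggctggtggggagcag
C1R, chr12:7092446-7092695, minus strand: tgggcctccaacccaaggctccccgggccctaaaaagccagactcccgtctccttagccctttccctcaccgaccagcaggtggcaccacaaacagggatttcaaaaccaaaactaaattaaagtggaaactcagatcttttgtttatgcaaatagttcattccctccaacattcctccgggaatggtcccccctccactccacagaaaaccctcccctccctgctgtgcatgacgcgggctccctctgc
CD55, chr1:207321428-207321677, plus strand: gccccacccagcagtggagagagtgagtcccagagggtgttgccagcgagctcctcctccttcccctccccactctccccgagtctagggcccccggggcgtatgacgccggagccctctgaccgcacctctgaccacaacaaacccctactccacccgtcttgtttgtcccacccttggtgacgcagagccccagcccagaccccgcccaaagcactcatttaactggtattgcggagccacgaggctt
CD59, chr11:33736480-33736729, minus strand: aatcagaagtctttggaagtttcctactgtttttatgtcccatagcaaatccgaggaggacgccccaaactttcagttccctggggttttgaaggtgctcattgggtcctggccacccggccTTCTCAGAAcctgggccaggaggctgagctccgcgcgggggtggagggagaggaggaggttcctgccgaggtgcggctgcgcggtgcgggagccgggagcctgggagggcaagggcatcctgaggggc
The CFB window held a TATA box 30 bases before the start, a STAT match at 92 and an interferon response element match at 140, none overlapping. The CD59 window held 1 STAT match, at 128, the windows shown for C1R and CD55 held none of the 5 motifs, and those of CFD and CFI held none. Among 35116 RefSeq promoter windows of the same length, 10.7% held the TATA letters, 6.57% the AP-1 letters, 6.57% the STAT letters, 3.02% the interferon response element letters and 5.21% an NF-kappaB match. Among the other start sites listed, 1 of C1R held a STAT match at 86, 1 of CD59 held the same STAT match as above at 184, and 1 of CD59 held AP-1 matches at 117 and 23. A match describes letters only.

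The 4OHT and bleomycin arms were each compared with DMSO to ask how the complement genes stand in OIS and in damage-induced senescence. In OIS, C1R, C1S, CFB, CFD and CFI fell and CD55 and CD59 rose. That is 7 of the 8 members called (edgeR quasi-likelihood test, adjusted p under 0.05), 2 higher and 5 lower, where 35.7% of all 14297 genes tested were called, 15.5% higher and 20.2% lower. The libraries of the 2 groups did not overlap for any of the 8, against 38.5% of all genes. After bleomycin, the same 5 members fell, and C3, CD55 and CD59 rose, so that 8 of 8 were called, where 31.2% of 14783 genes were called, 15.4% higher and 15.8% lower. The groups did not overlap for 7 of 8, against 28% of all genes. The members were chosen with earlier results of these data known, so these shares are no independent test. The median log2 fold change of the members was -2.92 in OIS and -1.28 after bleomycin, beside -0.08 and -0.01 over all genes tested. With CFI set to the bound given below, the OIS median was -2.76. The OIS and bleomycin responses were fitted apart, and each rests on its own DMSO libraries.

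**Figure D1:**
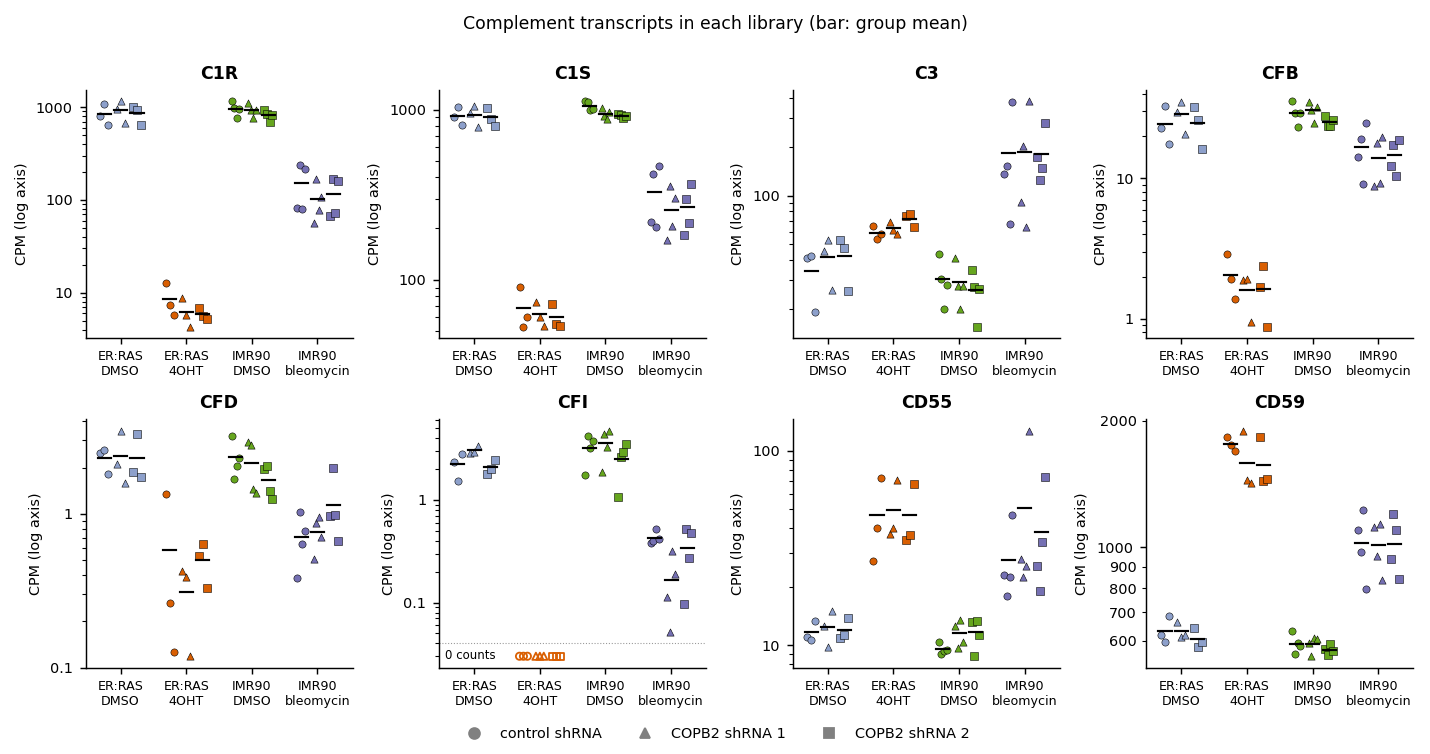
Level of each of the 8 transcripts in all 42 libraries, in CPM on a log axis, by line and treatment. Symbols give the shRNA, each point is 1 library and bars are group means. CFI libraries with 0 counts are drawn open at the foot of its panel. C1R, C1S, CFB and CFI stand lowest in the 4OHT libraries, and CD59 stands highest there.

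C1R showed the largest measured fall of the members in both models apart from CFI. Its levels with control shRNA were 801, 1091 and 648 CPM in the DMSO libraries of ER:RAS and 12.6, 7.40 and 5.77 CPM with 4OHT. All 4OHT libraries were thus far under the lowest DMSO library, and the fall was 106-fold (log2 fold change -6.73, SE 0.37, adjusted p = 4.26e-09). In IMR90 the DMSO libraries held 1169, 978, 764 and 946 CPM and the bleomycin libraries 82.4, 237, 79.2 and 218 CPM. Replicates 2 and 4 kept higher levels than replicates 1 and 3 after bleomycin, with control shRNA and with either COPB2 shRNA, but no bleomycin library reached a DMSO library. The fall was 6.39-fold (log2 fold change -2.68, SE 0.38, adjusted p = 1.74e-05). C1R shares 672 exon bases with C1RL on the same strand, and how reads there were assigned is not given in the sources used here. C1RL stood at 42.6 ± 9.92 CPM (SD, n = 3) in ER:RAS DMSO libraries, far under C1R. With 4OHT and control shRNA C1RL stood at 8.43 ± 0.203 CPM, beside 8.60 ± 3.59 CPM for C1R. The part of shared reads in the C1R values was not tested.

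C1S moved with C1R and fell less. With control shRNA it stood at 906, 1033 and 813 CPM in ER:RAS DMSO libraries and at 90.8, 53.1 and 60.1 CPM with 4OHT. It fell 14.5-fold (log2 fold change -3.86, SE 0.22, adjusted p = 5.42e-09). In IMR90 it stood at 1123, 1105, 987 and 1005 CPM with DMSO and at 217, 420, 204 and 463 CPM after bleomycin, where replicates 2 and 4 were again the higher ones. The bleomycin groups did not overlap with DMSO and the fall was 3.31-fold (log2 fold change -1.73, SE 0.26, adjusted p = 3.35e-05). Across all 42 libraries the log2 CPM of C1R and C1S had a Pearson r of 0.997, the highest of 10634 genes searched for either gene. The points share line, treatment and library, so this r is a description of their common pattern.

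C3, the convergence point of the cascade, rose after bleomycin and was not called in OIS. With control shRNA its ER:RAS libraries held 41.3, 42.6 and 19.2 CPM with DMSO and 64.7, 54.0 and 58.4 CPM with 4OHT. The groups did not overlap, but replicate 3 of DMSO stood far under the other two, and the log2 fold change of 0.69 (SE 0.30, 95% confidence interval 0.06 to 1.33) had an adjusted p of 0.0854. With the COPB2 shRNAs, where libraries of the same number deviated together, C3 was not called without a replicate block (log2 fold changes 0.53 and 0.70, adjusted p = 0.190 and 0.0785) and was called with it (0.57 and 0.75, adjusted p = 0.0493 and 0.0128). In IMR90 C3 stood at 43.7, 30.5, 19.9 and 28.01 CPM with DMSO and at 136, 154, 67.4 and 378 CPM after bleomycin. Every bleomycin library was above every DMSO library, and the rise was 5.91-fold (log2 fold change 2.56, SE 0.52, adjusted p = 0.000585).

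CFB, which supplies the alternative pathway protease, fell 12.7-fold in OIS. Its ER:RAS libraries with control shRNA held 22.9, 32.9 and 17.5 CPM with DMSO and 2.89, 1.92 and 1.39 CPM with 4OHT (log2 fold change -3.67, SE 0.40, adjusted p = 4.66e-06). In IMR90 the change was smaller and the groups overlapped: 35.6, 29.4, 23.04 and 29.3 CPM with DMSO and 14.1, 18.98, 9.09 and 24.6 CPM after bleomycin, replicate 4 of bleomycin being above the lowest DMSO library. The log2 fold change was -0.84 (SE 0.28, adjusted p = 0.0264), and this call was lost in 5 fits that each left out 1 library, with adjusted p from 0.0509 to 0.0962. Those libraries were replicates 1 and 3 of bleomycin and replicates 1, 2 and 4 of DMSO, all with control shRNA. CFB shares 2249 exon bases, 42.3% of its own, with an unnamed protein-coding gene on the same strand. That gene is not in the count table, and how reads there were assigned is not given.

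CFD, the protease that activates CFB, was low throughout. With control shRNA it stood at 2.497, 2.60 and 1.83 CPM in ER:RAS DMSO libraries and at 1.35, 0.264 and 0.127 CPM with 4OHT, the last being 2 counts. Replicate 1 of 4OHT was well above the other two, though still under all DMSO libraries (log2 fold change -2.18, SE 0.60, adjusted p = 0.00947). The size of the fall rested on single libraries. Without replicate 1 of that 4OHT group it was -3.55 (adjusted p = 0.000252), without replicate 3 it was -1.62 (adjusted p = 0.0463), and without replicate 2 it was -1.76 and the call was lost (adjusted p = 0.0670). In IMR90 CFD fell from 3.23, 1.70, 2.05 and 2.32 CPM to 0.383, 1.03, 0.633 and 0.778 CPM after bleomycin, with no overlap (log2 fold change -1.74, SE 0.35, adjusted p = 0.000599). CFD shares 255 exon bases with MED16 on the opposite strand. The study's methods name a directional kit and a stranded alignment, but whether the deposited counts used strand is not given in the sources used here, so reads from those bases may be mixed. MED16 stood at 105.5 ± 37.9 CPM (SD, n = 3) with DMSO and 79.6 ± 46.4 CPM with 4OHT.

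CFI, which inactivates C3b, had 46, 24 and 58 counts in the ER:RAS DMSO libraries with control shRNA (2.34, 1.52 and 2.79 CPM) and 0 counts in all 9 4OHT libraries. Against a floor of 3 counts per library, the fall with control shRNA was at least 10.1-fold, and with COPB2 shRNAs 1 and 2 it was at least 15.8-fold and 10.7-fold. It was called in each of these (adjusted p = 1.73e-05 with control shRNA). In ER:RAS CFI could pass the count filter only through DMSO libraries, where it is high, so these calls are no independent support. In IMR90 CFI went from 1.74, 4.17, 3.23 and 3.74 CPM to 0.383, 0.401, 0.518 and 0.415 CPM after bleomycin, or 7 to 9 counts a library. The groups did not overlap and the fall was 7.65-fold (log2 fold change -2.93, SE 0.43, adjusted p = 2.35e-05). CFI likewise shares 1562 exon bases, 29.4% of its own, with an unnamed same-strand gene absent from the count table. The part of such reads in the CFI counts was not tested.

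The 2 surface regulators rose in both models. CD55 went from 11.1, 10.6 and 13.3 CPM to 27.3, 40.2 and 72.8 CPM in OIS (log2 fold change 1.92, SE 0.42, adjusted p = 0.00204). Replicate 3 was the highest of its group in all 6 ER:RAS groups. In IMR90 CD55 went from 10.4, 9.08, 9.39 and 9.48 CPM to 22.9, 17.9, 22.4 and 46.5 CPM after bleomycin (log2 fold change 1.48, SE 0.47, adjusted p = 0.0196), with no overlap in either model.

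CD59 was the most abundant of the 3 regulators among the members, in CPM and per kb of transcript, and its replicates were close. It went from 619, 597 and 685 CPM to 1827, 1746 and 1695 CPM in OIS, a 2.58-fold rise (log2 fold change 1.37, SE 0.17, adjusted p = 1.26e-05). In IMR90 it went from 632, 557, 591 and 581 CPM to 1099, 977, 1229 and 794 CPM after bleomycin, a 1.70-fold rise (log2 fold change 0.76, SE 0.13, adjusted p = 0.000157). Both 4OHT and bleomycin libraries were all above their DMSO libraries.

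**Figure D2:**
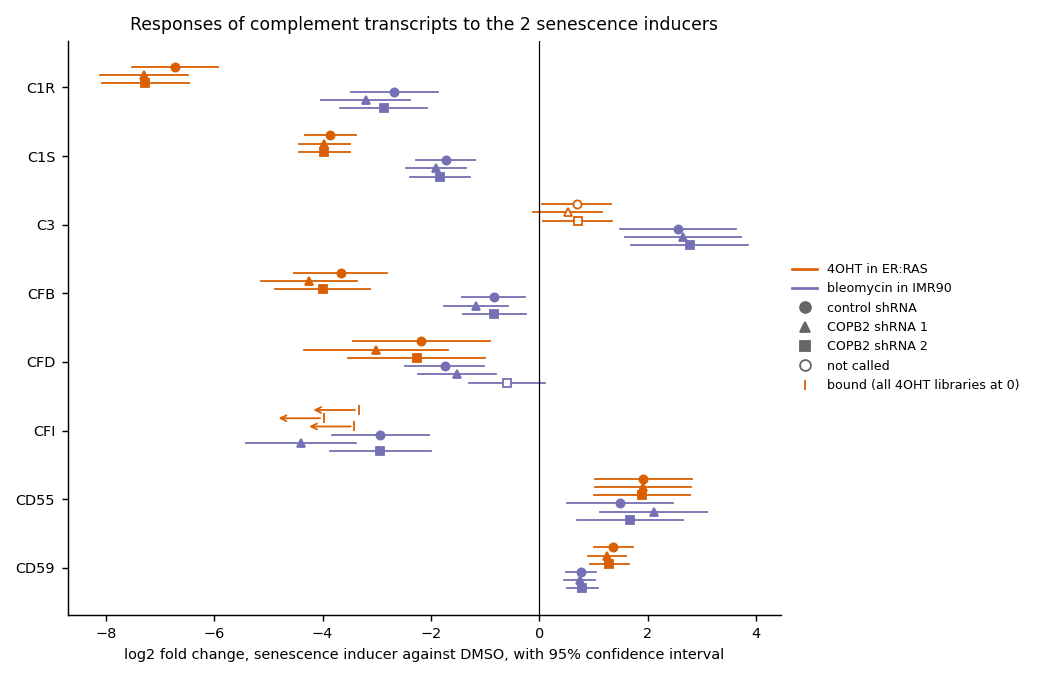
Log2 fold change of each transcript against DMSO, with 95% confidence intervals, for 4OHT in ER:RAS (orange) and bleomycin in IMR90 (purple), each with control shRNA and both COPB2 shRNAs. Open symbols were not called, and arrows for CFI start at the bound set by the floor of 3 counts. C1R, C1S and CFB lie further left in OIS than after bleomycin, and C3 lies further right after bleomycin.

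To ask whether the 2 responses differed, the OIS response was set against the bleomycin response in a single fit of all 42 libraries. It called 6 of 8 members, where 20.3% of 15299 genes were called. The falls of C1R, C1S and CFB were larger in OIS. The OIS minus bleomycin difference on the log2 scale was -3.98 for C1R (SE 0.55, adjusted p = 1.55e-06), -2.06 for C1S (SE 0.36, adjusted p = 6.67e-05) and -2.76 for CFB (SE 0.49, adjusted p = 8.28e-05). CFI was also called (adjusted p = 0.00329), with the OIS libraries at 0. CD59 rose more in OIS, by 0.68 (SE 0.21, adjusted p = 0.0166). The C3 difference was -1.81 (SE 0.66, adjusted p = 0.0473), and this call did not hold. It was lost in 9 of 14 fits that each left out 1 library with control shRNA, furthest without replicate 4 of bleomycin (-1.18, adjusted p = 0.198). The other 8 libraries were all 3 of 4OHT, replicates 1 and 2 of ER:RAS DMSO and replicates 2, 3 and 4 of IMR90 DMSO, with differences from -1.88 to -1.62. CFD and CD55 were not called, with differences of -0.37 (95% confidence interval -1.75 to 1.01) and 0.48 (-0.82 to 1.78).

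Over the 12 groups, the order of mean levels followed treatment rather than shRNA. For C1R, C1S, CFB, CFI and CFD the 6 DMSO groups of both lines stood at the top, the 3 bleomycin groups came next and the 3 4OHT groups stood lowest. C1R, for example, ran from 964 ± 166 CPM (SD, n = 4) in IMR90 DMSO with control shRNA to 825 ± 94.6 CPM with COPB2 shRNA 2 within the DMSO groups, then from 154 ± 85.1 to 103 ± 48.5 CPM after bleomycin and from 8.60 ± 3.59 to 5.87 ± 0.887 CPM (n = 3) with 4OHT. Neighbours within each of these 3 blocks overlapped. Libraries of the DMSO and bleomycin blocks overlapped for CFB and CFD, and those of the bleomycin and 4OHT blocks for CFD. For CD59 the order was the reverse, with 4OHT groups at 1569 ± 221 to 1756 ± 66.7 CPM, bleomycin groups at 1011 ± 144 to 1025 ± 185 CPM and DMSO groups at 569.6 ± 14.4 to 633 ± 45.9 CPM. For C3 the bleomycin groups led at 182 ± 69.6 to 186 ± 146 CPM, then the 4OHT groups at 59.0 ± 5.39 to 72.1 ± 6.73 CPM and the DMSO groups at 26.1 ± 7.96 to 42.3 ± 14.6 CPM. Bleomycin and 4OHT libraries overlapped for C3. Replicate 3 of bleomycin held 67.4 CPM with control shRNA and 64.3 CPM with COPB2 shRNA 1, against up to 76.7 CPM with 4OHT. Without replicate 4 the bleomycin means of C3 were 119, 119 and 149 CPM, still above the 4OHT means. For CD55 the bleomycin and 4OHT groups were interleaved, from 27.4 ± 12.9 to 50.7 ± 50.9 CPM, over DMSO groups at 9.59 ± 0.572 to 12.5 ± 2.63 CPM. That order rests on replicate 4 of bleomycin: without it the 3 bleomycin means were 21.1, 25.3 and 26.2 CPM, under all 3 4OHT means (46.5 to 49.4 CPM).

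Levels of different genes were compared per kb of the canonical spliced transcript, which was known for 7 members and not for C1R. In ER:RAS DMSO cells with control shRNA, C1S led at 342 CPM per kb, followed by CD59 at 83.7, CFB at 9.88, C3 at 6.57, CD55 at 4.51, CFD at 1.94 and CFI at 1.12 CPM per kb. In OIS CD59 stood above C1S, with CD59 at 232 and C1S at 25.4 CPM per kb, and CD55 (18.05) and C3 (11.3) stood above CFB (0.835). After bleomycin CD59 at 135 and C1S at 122 CPM per kb were close, with ranges over libraries of 105 to 162 and 75.9 to 173, and C3 (35.1) stood above CD55 (10.6) and CFB (6.74). Without replicate 4 of bleomycin, described next, CD59 stood at 146 and C1S at 104 CPM per kb, with ranges of 129 to 162 and 75.9 to 157, and C3 at 22.7, CD55 at 8.13 and CFB at 5.68 CPM per kb. The CD59 value uses a transcript of 7563 bases, and shorter forms in use would raise it.

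Replicate 4 of the bleomycin arm stood apart for several genes. With each of the 3 shRNAs it was the highest of its group for C3, CFB and CD55 and the lowest for CD59. For CFB with COPB2 shRNAs 1 and 2 it led replicate 2 by little, at 19.8 against 17.9 CPM and 18.7 against 17.2 CPM. It was also the highest for the cytokine genes IL1B, IL6 and CXCL8: with control shRNA CXCL8 stood at 1146 CPM in replicate 4 and at 37.0 to 96.6 CPM in the other three libraries, and IL1B at 89.1 against 9.41 to 22.6 CPM. What part this library's cytokine level has in the complement values was not tested. Without replicate 4, C3 with control shRNA stood at 119 ± 45.5 CPM (n = 3) in place of 184 ± 135 (n = 4), and the rise over DMSO was 1.99 on the log2 scale (adjusted p = 0.00296) when that library alone was left out and 1.99 (adjusted p = 0.000579) when replicate 4 of all 3 bleomycin groups was left out. CFB stood at 14.1 ± 4.95 CPM in place of 16.7 ± 6.63, no longer overlapped with DMSO, and fell by 1.04 on the log2 scale (adjusted p = 0.0113 and 0.00764). CD55 stood at 21.1 ± 2.76 CPM in place of 27.4 ± 12.9 and its log2 fold change of 1.13 was not called when only that library was left out (adjusted p = 0.0765) but was called without replicate 4 of all 3 groups (adjusted p = 9.52e-05). CD59 stood at 1102 ± 126 CPM in place of 1025 ± 185 and rose by 0.89 and 0.90. C1R, C1S, CFD and CFI stayed called in both fits, with log2 fold changes of -2.84, -1.90, -1.76 and -2.90.

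**Figure D3:**
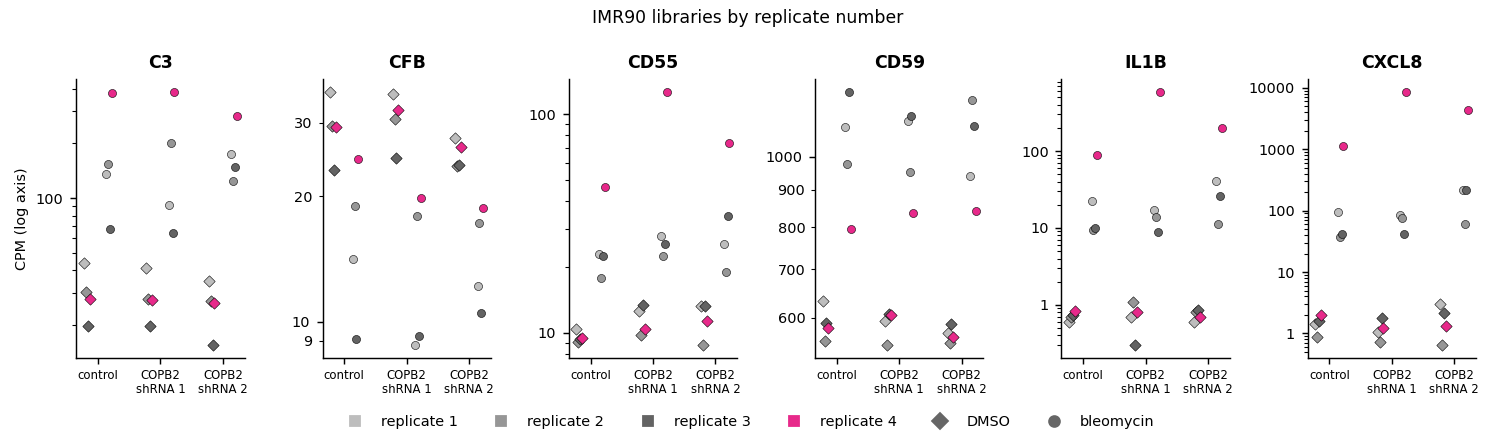
CPM (log axes) of C3, CFB, CD55, CD59, IL1B and CXCL8 in the 24 IMR90 libraries, by shRNA. Diamonds are DMSO, circles are bleomycin, and replicate 4 is coloured. Replicate 4 of bleomycin is the highest circle for C3, CFB, CD55, IL1B and CXCL8 and the lowest for CD59 with each shRNA. Replicate 4 of DMSO lies among the others, except with control shRNA for IL1B and CXCL8. There it is the highest diamond, at 0.842 CPM against up to 0.734 CPM and at 2.00 CPM against up to 1.61 CPM.

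With COPB2 shRNA 1, replicate 4 of bleomycin held 127 CPM of CD55 against 25.3 ± 2.68 CPM in the other three libraries, and with shRNA 2 it held 73.6 against 26.2 ± 7.60 CPM. C3 in the same libraries was 385 against 119 ± 72.9 CPM and 282 against 149 ± 24.7 CPM. Leaving out replicate 4 of all 3 bleomycin groups changed no member's call in the bleomycin responses, and it lost C3 in the comparison of the 2 responses (-1.17, adjusted p = 0.114).

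Whether COPB2 knockdown changed these genes was asked by comparing each COPB2 shRNA with the control shRNA. In the 6 comparisons outside OIS 0 of 8 members were called by edgeR, and in the 2 in OIS 0 of 7, since CFI had 0 counts in all libraries compared there. DESeq2 also called 0. The share of all genes called was 0.00699% for each shRNA in ER:RAS DMSO cells, 0.14% and 0.224% in OIS, 0.00676% for each in IMR90 DMSO cells, and 0.00676% and 0.0744% after bleomycin. Without a replicate block a single member passed an unadjusted p under 0.05 by edgeR. This was CFI with COPB2 shRNA 1 after bleomycin, at 2, 1, 6 and 4 counts against 8, 7, 9 and 8 with control shRNA (log2 fold change -1.31, 95% confidence interval -2.50 to -0.13). The tightest interval was that of CD59, from -0.27 to 0.29 for shRNA 1 in IMR90 DMSO cells and from -0.28 to 0.27 for shRNA 2 after bleomycin. C1R had intervals of -1.10 to 0.18 and -1.19 to 0.10 in OIS, where all libraries were low. There C1R was lower than with control shRNA in every same-numbered pair with each COPB2 shRNA. With the replicate block its intervals in OIS were -0.90 to -0.005 and -0.96 to -0.06, which leave out 0. Neither was called (adjusted p = 0.679 and 0.441), and same-numbered libraries did not deviate together in every pair there. C3 after bleomycin had intervals of -0.98 to 1.04 and -1.01 to 1.01. Libraries of the same number deviated together in those comparisons, and with the replicate block the intervals were -0.71 to 0.76 and -0.56 to 0.92. In the same-numbered pairs after bleomycin CD55 was higher in 4 of 4 with each COPB2 shRNA, with ratios of 1.14 to 2.73 and 1.06 to 1.58, and C1R was lower in 4 of 4 with each, with ratios of 0.497 to 0.996 and 0.709 to 0.919. Both shRNAs share the control libraries, and neither gene was called with the block (CD55 log2 fold changes 0.71 and 0.42, adjusted p = 1.00 and 0.635; C1R -0.53 and -0.37, adjusted p = 1.00 and 0.60). CFI was lower in 4 of 4 pairs with shRNA 1 (ratios of 0.128 to 0.616) and in 2 of 4 with shRNA 2. With the block its log2 fold changes were -1.37 (95% confidence interval -2.22 to -0.53) and -0.41 (-1.16 to 0.35), neither called.

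**Figure D4:**
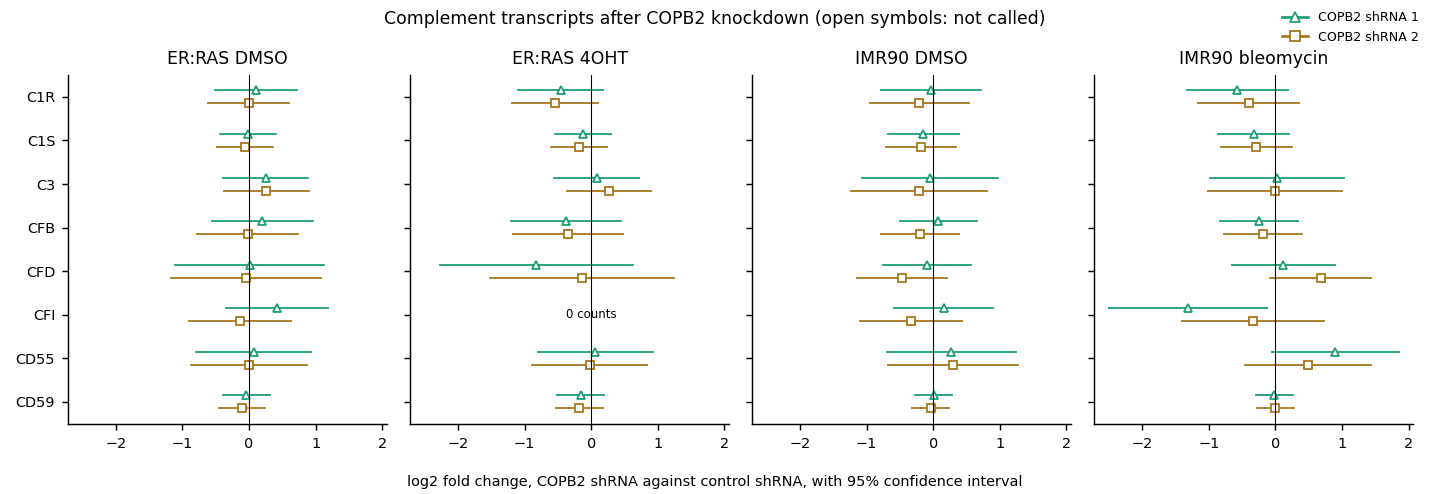
Log2 fold change of each transcript with COPB2 shRNA 1 (triangles) or 2 (squares) against control shRNA, with 95% confidence intervals, in the 4 combinations of line and treatment. Open symbols mark values that were not called, which is all of them, and CFI has no value with 4OHT because all libraries were at 0. In these fits, without a replicate block, the interval of CFI with shRNA 1 after bleomycin, -2.50 to -0.13, is the one that leaves out 0.

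The responses themselves were therefore read again with each COPB2 shRNA. The OIS response called 7 of 8 members with shRNA 1 and 7 of 8 with shRNA 2, C3 being the exception, where 36.9% of all genes were called with shRNA 1 and 36.9% with shRNA 2. As given above, C3 was called with each COPB2 shRNA when the replicate block was used. C1R fell by 7.29 and 7.27 on the log2 scale and CD59 rose by 1.25 and 1.29. The bleomycin response called 8 of 8 with shRNA 1, where 35.2% of genes were called, and 7 of 8 with shRNA 2, where 40% were. The exception with shRNA 2 was CFD, at 1.96, 2.05, 1.40 and 1.24 CPM with DMSO and 0.971, 1.97, 0.982 and 0.666 CPM after bleomycin (log2 fold change -0.60, SE 0.34, adjusted p = 0.170). The groups overlapped through replicate 2. The interaction of each shRNA with each inducer called 0 of 8 members, where 0% of all genes were called, by edgeR. For CFI in OIS this is no test, since all 4OHT libraries were at 0. At an unadjusted p under 0.05 stood CFI for shRNA 1 with bleomycin and CFD for shRNA 2 with bleomycin, where the interaction was 1.15 on the log2 scale (95% confidence interval 0.13 to 2.16).

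Of 40 other genes of the complement system, 15 passed the count filter in each line. They were not the same 15, since ITGAX, for example, passed in ER:RAS and not in IMR90. In OIS 12 of the 15 were called, 4 higher and 8 lower, beside the 35.7% of all genes (15.5% higher and 20.2% lower). After bleomycin 8 of its 15 were called, 3 higher and 5 lower, beside 31.2% (15.4% higher and 15.8% lower). Some called genes, CD93 in OIS and C6 and SUSD4 after bleomycin among them, had few or no counts with DMSO and control shRNA. Among those libraries they could pass the filter only where they are high, so their calls are no independent support. The median log2 fold change of the 15 of each line was -1.37 in OIS and 0.11 after bleomycin, over partly different genes. Setting VTN, CD93 and C5AR2 to their bounds left the OIS median at -1.37. C2, the protease of the classical convertase, fell from 6.98 ± 3.32 to 0.729 ± 0.475 CPM in OIS (adjusted p = 0.000173) and from 9.79 ± 2.20 to 1.55 ± 0.517 CPM after bleomycin (adjusted p = 1.60e-06). C1RL, a C1r-like protease, fell from 42.6 ± 9.92 to 8.43 ± 0.203 CPM in OIS and from 59.4 ± 8.003 to 21.7 ± 5.35 CPM after bleomycin. CLU, a soluble inhibitor of the membrane attack complex, fell from 2479 ± 742 to 204 ± 119 CPM and from 2515 ± 521 to 806 ± 236 CPM. These 3 genes therefore fell in both models, as did C7, a subunit of the membrane attack complex, with log2 fold changes of -7.49 and -2.10, and the collectin COLEC11, with -5.22 and -1.34.

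Other genes of the list were called in a single model, and among those named here the difference was called by its own test for VTN and ITGAX (adjusted p = 0.000340 and 0.00731). VTN, vitronectin, went from 1.28 ± 0.308 CPM to 0 counts in OIS, a fall of at least 5.84-fold, and stood at 1.55 ± 0.806 CPM with DMSO and 2.78 ± 1.97 CPM after bleomycin. ITGAX, an integrin chain of complement receptor 4, had 0 to 1 counts in ER:RAS DMSO libraries and stood at 6.08 ± 1.75 CPM in OIS, while it did not pass the count filter in IMR90. ITGAX could thus enter the fit of all libraries only through 4OHT libraries, where it is high. Its call there is therefore no independent support. COLEC10, a collectin of the lectin pathway, rose from 11.51 ± 5.56 to 65.9 ± 10.5 CPM in OIS (log2 fold change 2.40, adjusted p = 0.00103), and MASP1, a lectin pathway protease, fell from 11.3 ± 5.19 to 4.95 ± 0.749 CPM (adjusted p = 0.00504). CD93, a membrane lectin, rose from 0 counts to 1.54 ± 1.19 CPM in OIS, at least 9.51-fold. CD46, the surface cofactor for CFI, rose after bleomycin from 119.6 ± 23.4 to 258 ± 92.0 CPM (log2 fold change 1.07, adjusted p = 0.00272), and its OIS log2 fold change was 0.19 (SE 0.41). The differences between models for COLEC10, MASP1 and CD46 were not called, and that for CD93 could not be fitted.

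**Figure D5:**
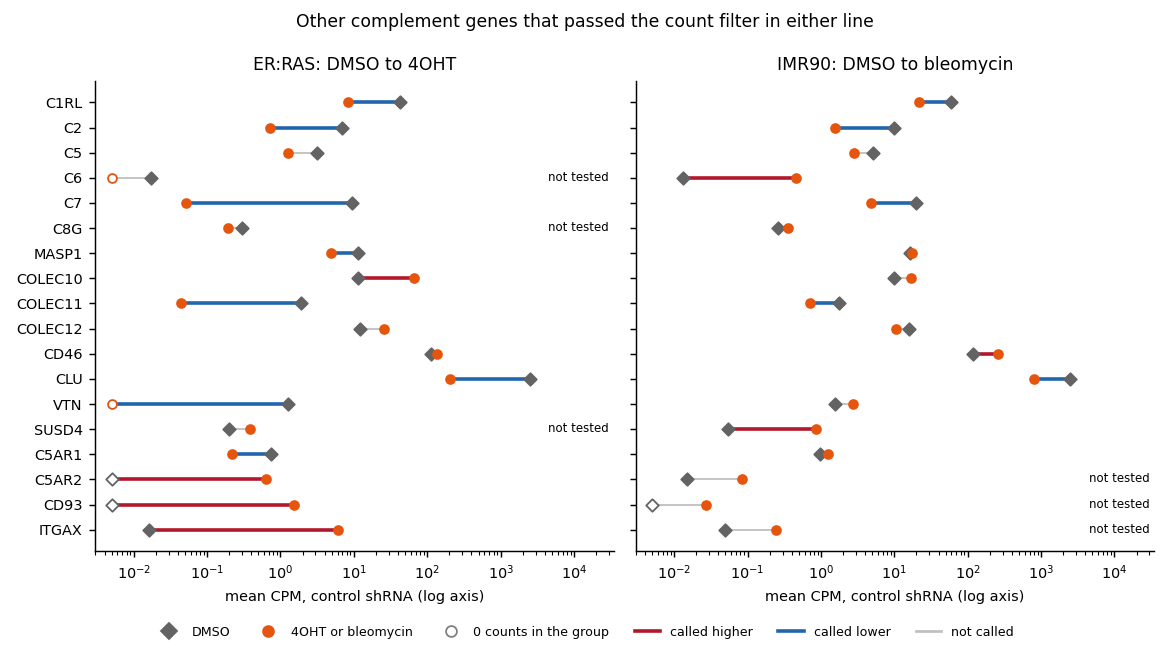
Mean CPM (log axes) with control shRNA of 18 other complement genes that passed the count filter in either line, for DMSO (diamonds) and 4OHT or bleomycin (circles). Red lines were called higher, blue lines called lower, and open symbols at the left edge are groups with 0 counts. C2, C7, C1RL, CLU and COLEC11 have blue lines in both panels.

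Genes known to lie upstream of complement transcription or to be induced beside it were read in the same fits. In OIS, IL1B stood at 8239.8 ± 1811 CPM against 0.888 ± 0.0735 with DMSO, IL6 at 146 ± 74.1 against 8.70 ± 2.31 and CXCL8 at 6998 ± 3682 against 8.19 ± 6.58 CPM, and all 3 were called. After bleomycin IL1B and CXCL8 were called (log2 fold changes 5.47 and 7.77), and IL6 was not (3.13, SE 1.29, adjusted p = 0.0706). These values rest in large part on replicate 4: without that library they were 4.28 for IL1B (adjusted p = 0.0111), 5.30 for CXCL8 (adjusted p = 0.0146) and 1.24 for IL6 (adjusted p = 0.478). Without replicate 4 of all 3 bleomycin groups IL6 was called (1.24, adjusted p = 0.0119). The transcription factor genes CEBPB (1.19) and NFKBIZ (2.15) rose and CEBPD (-1.28) fell in OIS, while after bleomycin NFKBIZ rose (1.25), CEBPD fell (-1.30) and CEBPB was not called (0.11). Without replicate 4 of bleomycin with control shRNA NFKBIZ was at 0.83 and not called (adjusted p = 0.150), and without replicate 4 of all 3 groups it was called (0.83, adjusted p = 0.00861). IRF1 was not called in either model, with log2 fold changes of 0.55 in OIS and -0.35 after bleomycin.

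The genes whose log2 CPM over all 42 libraries was most like that of each member were read as a description, since all share the same treatments. Among genes with a mean of at least 5 CPM, HEPH (r = 0.993) and BMP4 (0.991) followed C1S for C1R, and COL3A1 (0.992) and BMP4 followed C1R for C1S. CFB was most like HS6ST1 (0.978), MANSC1 and IFIT1. CD59 was most like TNFRSF10D (0.974), DHRS7 and SRXN1, and CD55 most like SLC39A14 (0.965), IL13RA2 and GCH1. C3 had the loosest match, SLC11A2 (0.904). CFD was most like CTSF (0.934) and CFI most like RBMX (0.971). Among the members, CFB had an r of 0.964 with C1R, C3 had an r of 0.869 with CD55 in the 24 IMR90 libraries and 0.570 in the 18 ER:RAS libraries, and CD55 had an r of 0.749 with CD59.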

How the data were processed

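The authors deposited raw counts per gene symbol for 42 poly(A) libraries. The submitters' processing notes name DRAGEN, STAR 2.7.8a, DESeq2 1.32.0 and build hg38, while the study's methods name another aligner and an older build, so the aligner is uncertain. Of the symbols, 95.5% matched RefSeq on GRCh38.p14. The counts were tested with edgeR 4.0.16 (R 4.3.3, limma 3.58.1): filterByExpr, TMM, robust quasi-likelihood F-test, two-sided, with Benjamini-Hochberg adjustment over all genes tested and a call under 0.05. ER:RAS (18 libraries) and IMR90 (24 libraries) were fitted apart, and all 42 together for the difference of the 2 responses. The method was tested on simulated data. CPM are counts over TMM library sizes. The floor is 3 counts per library, 0.110 to 0.271 CPM, and covers counting error only. DESeq2 1.42.0 was an alternative.

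The members, gene lists and rule for named genes were chosen with earlier results of these data known. The rule names the 8 members, those of 40 other complement genes that were called in OIS or bleomycin, changed by 1 or more on the log2 scale and reached 1 CPM in the higher group, 8 context genes, of which 1 is not reported here, and the 3 genes most like each member. Libraries of the same replicate number deviated together in every pair (r over 0.1) in the OIS responses with both COPB2 shRNAs and in the COPB2 comparisons of IMR90 DMSO and of bleomycin, and not in the other comparisons. Promoters came from RefSeq, and spliced lengths from GENCODE on GRCh37, where C1R has no whole transcript.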

Additional observations from a re-analysis of the deposited data

Results flagged for a closer look

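CD55 in replicate 4 of bleomycin with COPB2 shRNA 1 stood far from the other three libraries of its group, at 127 CPM against 22.5 to 27.8 CPM, a gap of 0.949 of the group's range. Of 48 combinations of member and 4-library group 1 stood this far out, where chance gives about 1 in 20. The combinations share libraries, so this count cannot show whether the CD55 value is due to chance. Replicate 4 of bleomycin was the highest for CD55 with each shRNA, at 46.5 CPM with control shRNA and 73.6 CPM with COPB2 shRNA 2.

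Of the 8 members, 6 had responses that differed between OIS and bleomycin by the test of the difference itself, where 20.3% of all genes did. The OIS response minus the bleomycin response was -3.98 for C1R, -2.06 for C1S, -2.76 for CFB and -5.46 for CFI on the log2 scale, the last a fitted value against 4OHT libraries at 0 and no bound. It was -1.81 for C3 and 0.68 for CD59. The C3 call was lost in 9 of 14 fits that left out 1 library, and the CD59 call in the fit of only the libraries compared (adjusted p = 0.0922). Line and inducer cannot be told apart in these values.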

How the results depend on the processing

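The number of members called changed by no more than 1.5 times under any alternative run: DESeq2 size factors, the DESeq2 Wald test, no filter on low counts, a minimum log2 change of 1, only the libraries compared, the replicate block, no replicate 4 of bleomycin, and each library left out in turn. Leaving out 1 library gave 6 to 7 members in OIS, 7 to 8 after bleomycin and 5 to 6 in the difference of the responses, and a fit of only the libraries compared gave 6, 7 and 4. That fit lost CFD in OIS (-2.16, adjusted p = 0.0579), CFB after bleomycin (-0.80, adjusted p = 0.0717) and C3 and CD59 in the difference (adjusted p = 0.0840 and 0.0922). C3 in the difference was also lost with DESeq2 size factors (adjusted p = 0.0570) and with no filter (adjusted p = 0.0792). The CFD difference, which was not called, ranged from -1.80 to 0.15 with 1 library left out, turning positive without replicate 3 of 4OHT with control shRNA. In each of these cases the cause was not tested. With a minimum log2 change of 1, CFB and CD59 were not counted after bleomycin. With the replicate block, C3 was called in OIS with control shRNA (0.76, adjusted p = 0.0130), where the numbers did not pair the libraries, and the block changed no other member call beyond those given for C3 with the COPB2 shRNAs. Among context genes and fibroblast markers, an alternative chosen after seeing the data, without replicate 4 of bleomycin, turned CEBPB to -0.012 (-0.0098 without that of all 3 groups) and THY1 to 0.12, neither called, and lost COL1A2 (adjusted p = 0.104, or 0.0733 without replicate 4 of all 3 groups) and, without that of the control shRNA alone, COL1A1 (adjusted p = 0.0614). Over all genes, the OIS response called 5098, or 2911 with only the libraries compared. The bleomycin response called 4614, or 2437 with a minimum log2 change of 1 (5203 and 2781 with shRNA 1, 5915 and 2969 with shRNA 2), and with shRNA 2 called 3734 with only the libraries compared. The difference called 3101, or 4711 with the block. COPB2 shRNAs 1 and 2 in OIS called 20 and 32 genes, 44 and 76 with the block, 50 and 74 with the Wald test and 0 with only the libraries compared. After bleomycin shRNA 2 called 11, then 28, 35 and 1, and 6 with no filter. CFD and CFI rest on few counts, which limits them.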

Other observations

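Several complement genes outside the members were at trace level in IMR90 and had counts after bleomycin. C6, a subunit of the membrane attack complex, had 0 to 1 counts in DMSO libraries with control shRNA and 5 to 10 after bleomycin, and SUSD4, a complement regulator, had 0 to 2 and 11 to 22. Both were called, at adjusted p = 0.000747 and 0.000148 by edgeR, and both had means under 1 CPM. Bleomycin libraries had more genes with a count in general, 19212 to 20161 against 16691 to 17706 with DMSO over all 3 shRNAs. Markers of other cell types also had counts there with control shRNA, 1 to 5 for CD163 and 0 to 6 for CD3E, where the DMSO libraries had 0. The part of this wider detection in the C6 and SUSD4 counts was not tested. In OIS the anaphylatoxin receptor C5AR2 had 0 counts in DMSO libraries and 7 to 10 with 4OHT, at least 3.92-fold higher, while C5AR1 fell (log2 fold change -1.97, adjusted p = 0.0238). The difference between models was called for C5AR1 and SUSD4 (adjusted p = 0.0166 and 0.0244) and not for C6 or C5AR2. The limit given above for the SUSD4 call holds for its difference too.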
